A study of Sus scrofa with 16 samples.

Results

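The miR-199 and miR-214 cluster was followed as 5 mature miRNAs in the endometrium (the inner layer of the uterus) of 15 pregnant sows. It comprises the products of miR-199a, miR-199b and miR-214. The 5 members are miR-199a-5p, miR-199b-5p, miR-199-3p (the same sequence in miR-199a and miR-199b), miR-214-3p and miR-214-5p. A member is the set of 20 to 26 nt reads whose first 20 bases equal its sequence. All 5 were found, with 2451247 reads in total, among 23707 such sets that reached 30 reads over all libraries. Tissue was taken on day 10 of pregnancy from adult sows after the uterus had been flushed with saline. The sows had received oestradiol-17β, an oestrogen made by the ovary, by mouth at 0.05 µg/kg/day (3 sows), 10 µg/kg/day (4 sows) or 1000 µg/kg/day (4 sows). The 4 control sows received only the ethanol in which the hormone was given. Dosing ran from insemination to sampling. Sow 7, at 0.05 µg/kg/day, was extracted 2 times, and its 2 libraries were summed, so that 16 libraries gave 15 replicates, each 1 sow. The design asks whether endometrial miRNAs respond to oestradiol.

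A microRNA is cut from a hairpin with a 5p and a 3p arm, and bases 2 to 8 of a mature arm, the seed, lead the pairing with target messenger RNAs. MiR-199 and miR-214 are known for expression in mesenchymal cells such as fibroblasts. In the mouse uterus around implantation, the 3p arm of miR-199a and miR-101 have been linked to the control of cyclooxygenase 2, an enzyme of prostaglandin synthesis. The genes lie within dynamin genes. In the pig annotation of RefSeq (assembly Sscrofa11.1, used for names and neighbours only), MIR199A-1 and MIR214 lie within DNM3 on chromosome 9 and are each other's nearest annotated miRNA. MIR199A-2 lies within DNM2 on chromosome 2, and MIR199B lies within DNM1 on chromosome 1. Reads of miR-199a-5p can thus come from 2 of these genes and reads of miR-199-3p from 3.

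The most abundant deposited read of each member is given from 5′ to 3′, with T for U and the seed in capitals. The seed separates the members except miR-199a-5p from miR-199b-5p, and 2 members change seed with their start. No miRNA reference was used, so the members were found by the first 8 bases known for each miRNA, and later bases are as sequenced here.
miR-199a-5p: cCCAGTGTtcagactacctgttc
miR-199b-5p: cCCAGTGTttagactatctgttc
miR-199-3p: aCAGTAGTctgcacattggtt
miR-214-3p: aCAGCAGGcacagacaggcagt
miR-214-5p: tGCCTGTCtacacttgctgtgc
miR-199-3p, 1 base earlier: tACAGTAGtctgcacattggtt
miR-214-3p, 1 base earlier: tACAGCAGgcacagacaggcagt

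Both miR-199-5p reads have the seed CCAGTGT. Counted from the 5′ end, they differ within 20 bases by C10T and C17T, the base of miR-199a-5p first, and which read is named a or b is background knowledge. MiR-199-3p and miR-214-3p are alike at 6 of their first 8 bases and at 8 of 20. A single change from miR-199a-5p towards miR-199b-5p was rare: reads with C10T alone came to 0.231% and reads with C17T alone to 0.131% of the miR-199a-5p count. Reads between the 2 sequences thus made up a small part of either member.

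The miR-199 arms were among the abundant small RNAs of this tissue, and the miR-214 arms were far lower. Levels are given as RPM, reads of the member scaled to 1000000 reads of 18 to 26 nt from the same sow. Over the 15 sows, miR-199a-5p had 10754 ± 2121 RPM (SD), miR-199-3p 8980 ± 1971 RPM and miR-199b-5p 6538 ± 1298 RPM, which ranked 16, 19 and 23 among the 23707 sets of reads. MiR-214-3p had 231 ± 62.9 RPM (rank 244) and miR-214-5p 82.3 ± 19.4 RPM (rank 576). Each miR-199 arm was above each miR-214 arm in every sow. In whole tissue, fewer cells of a type and less of an RNA per cell cannot be told apart. The 5 members together made up 2.66 ± 0.513% of the 18 to 26 nt reads, from 1.55 to 3.44% per sow. Depth was 4497096 to 14945018 reads per library, and the thinnest value, miR-214-5p in sow 13, rests on 136 reads.

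The highest and lowest sows differed 2.30-fold for miR-199a-5p, 2.09-fold for miR-199b-5p, 2.29-fold for miR-199-3p, 3.67-fold for miR-214-3p and 2.56-fold for miR-214-5p. Within dose groups the SD of log2 RPM was 0.34 to 0.37 for 4 members and 0.45 for miR-214-3p, against a median of 0.35 over the 499 sets of reads that average at least 100 RPM. Of those 499 sets, 370 had a smaller SD than miR-214-3p. Between the 2 extractions of sow 7 the second was higher for every member, by 0.20 (miR-199a-5p), 0.19 (miR-199b-5p), 0.33 (miR-199-3p), 0.51 (miR-214-3p) and 0.42 (miR-214-5p) on the log2 scale. The median absolute difference between those 2 libraries was 0.26 over the same 499 sets.

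MiR-199a-5p, the most abundant member, was at 11990, 11334, 11197 and 6576 RPM in control sows 1 to 4. It was at 13176, 11185 and 11551 RPM in sows 5 to 7 at 0.05 µg/kg/day, and at 10697, 10844, 12417 and 11080 RPM in sows 8 to 11 at 10 µg/kg/day. Sows 12 to 15 at 1000 µg/kg/day had 13064, 5738, 11420 and 9040 RPM. Control sow 4 and sow 13 stood low, all other sows were between 9040 and 13176 RPM, and every dose group overlapped the controls.

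MiR-199-3p was at 9808, 9437, 7414 and 5581 RPM in control sows 1 to 4 and at 11268, 10951 and 8982 RPM in sows 5 to 7. It was at 10165, 7844, 9859 and 8213 RPM in sows 8 to 11 and at 12763, 5673, 8763 and 7974 RPM in sows 12 to 15. The lowest sows were again 4 and 13 and the highest was sow 12. At 0.05 µg/kg/day 2 of 3 sows were above every control sow, and sow 7 was within the control range. MiR-199b-5p ran from 4002 to 7914 RPM in control sows and from 6631 to 6754 RPM at 0.05 µg/kg/day, and from 5719 to 7928 RPM and 3907 to 8184 RPM at the 2 higher doses.

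MiR-214-3p was at 221, 303, 175 and 155 RPM in control sows 1 to 4 and at 291, 290 and 246 RPM in sows 5 to 7. It was at 345, 225, 212 and 207 RPM in sows 8 to 11 and at 259, 93.9, 214.1 and 222 RPM in sows 12 to 15. Sow 8 was the highest and sow 13 the lowest, and all groups overlapped. MiR-214-5p ran from 44.0 to 101.3 RPM in control sows and from 81.7 to 113 RPM at 0.05 µg/kg/day, and from 67.9 to 95.9 RPM and 49.7 to 93.3 RPM at the 2 higher doses.

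**Figure D1:**
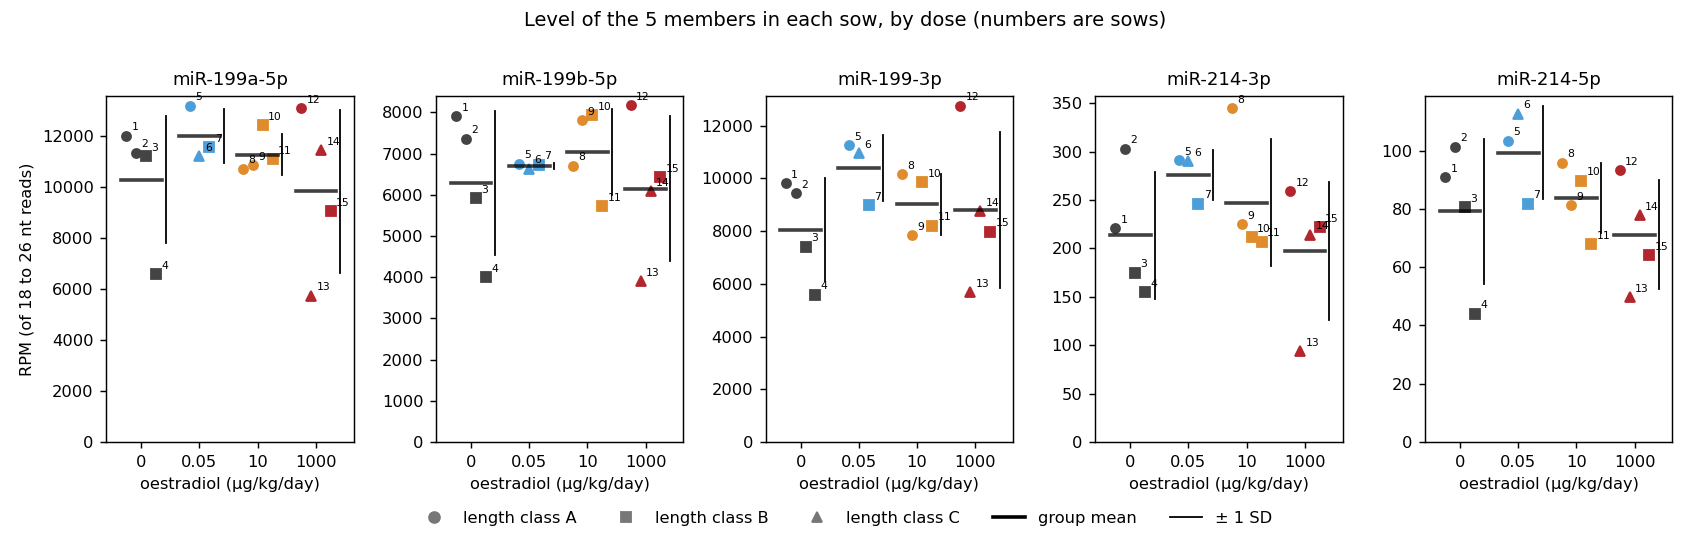
Level of each member (RPM, axis from 0) in each sow by oestradiol dose, with the group mean (thick line) and ± 1 SD (thin line); marker shape is the library's read length class, explained in the text. Control sow 4 and sow 13 sit low in all 5 panels and the dose groups overlap the controls in each.

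No member passed the test for a change with oestradiol at any dose. In edgeR's quasi-likelihood test over 9951 sets of reads, 0 of 5 members were called at an adjusted p under 0.05 in any dose, in the joint test of the doses or in the trend over dose rank. The share called among all sets was 0.0% in each of these tests. At an unadjusted p under 0.05 there were 256, 317 and 445 sets at 0.05, 10 and 1000 µg/kg/day, 305 in the joint test and 407 in the trend. Each count is a smaller share of the 9951 sets than 0.05, the share that would fall there if no set changed. DESeq2 called 0, 1, 0, 2 and 0 sets in these tests and none of them was a member.

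At 0.05 µg/kg/day all 5 members had values above control and none passed. MiR-199-3p differed by 0.34 on the log2 scale (95% confidence interval -0.20 to 0.89) and miR-214-3p by 0.34 (-0.29 to 0.97). MiR-214-5p differed by 0.30 (-0.32 to 0.92), miR-199a-5p by 0.19 (-0.36 to 0.74) and miR-199b-5p by 0.06 (-0.51 to 0.64). The members' median was 0.30, against -0.01 over all 9951 sets. Single control sows moved these values: without sow 4 and without sow 2 that of miR-199-3p was 0.17 and 0.47, that of miR-214-3p 0.18 and 0.61, and that of miR-214-5p 0.07 and 0.48. With 3 sows against 4, rises of up to 0.64 to 0.97 lie within these intervals.

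At 10 µg/kg/day all 5 values were again above control, from 0.18 for miR-214-5p (-0.40 to 0.75) to 0.30 for miR-214-3p (-0.29 to 0.88). The value of miR-214-3p was 0.10 without sow 8 and 0.57 without control sow 2. The median was 0.25, against 0.03 over all sets. At 1000 µg/kg/day 4 values were below control and 1 above, from -0.13 for miR-214-5p (-0.71 to 0.44) to 0.15 for miR-199-3p (-0.36 to 0.66), with a median of -0.05 against 0.01 over all sets. Every adjusted p of a member in edgeR was 0.999 or higher. The 3 comparisons share the 4 control sows, so their values are not independent of each other. Control sow 4, the lowest control for every member, weighed on each of them. Without it the difference at 0.05 µg/kg/day was -0.0013 for miR-199a-5p and -0.13 for miR-199b-5p, and at 10 µg/kg/day it was 0.02 for miR-199a-5p and -0.06 for miR-214-5p. At 1000 µg/kg/day sows 12 and 13 pulled in opposite directions: miR-199a-5p was at 0.09 without sow 13, and miR-199-3p was at -0.09 without sow 12.

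The 3p and 5p arms were unevenly represented, in opposite ways for miR-199 (summed over its 3 genes) and miR-214. For miR-199 the 3p reads were fewer than the summed 5p reads in every sow, with a median ratio of 0.505 and a range of 0.421 (sow 9) to 0.615 (sow 6). For miR-214 the 3p reads were more than the 5p reads in every sow, with a median ratio of 2.78 and a range of 1.89 (sow 13) to 3.60 (sow 8). MiR-199a-5p exceeded miR-199b-5p in every sow, by 1.39-fold (sow 9) to 1.95-fold (sow 5) with a median of 1.60. MiR-214-3p was 0.0258 of miR-199-3p in the median sow, from 0.0166 (sow 13) to 0.0339 (sow 8). These are ratios of read counts within a library, not corrected for length, and no calibration of the reads against known amounts was used.

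The size of the arm ratio depends on which starts are counted. When reads that start up to 2 bases to either side were added to each arm, the median 3p to 5p ratio of miR-199 became 0.771 (0.643 to 0.913) and that of miR-214 became 4.38 (3.19 to 5.71). Both kept their side of 1 in every sow. Only the 3p arms have a second common start, described below.

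None of the 4 ratios differed between a dose and control beyond the spread between sows. For the miR-199 arm ratio, the control sows had 0.493, 0.505, 0.433 and 0.528 and sows 5 to 7 at 0.05 µg/kg/day had 0.565, 0.615 and 0.491. Sows 8 to 11 at 10 µg/kg/day had 0.584, 0.421, 0.485 and 0.489, and sows 12 to 15 at 1000 µg/kg/day had 0.601, 0.588, 0.501 and 0.516. At least 1 sow of each dose fell within the control range. On the log2 scale the mean was 0.18 above control at 0.05 and 0.17 above control at 1000 µg/kg/day. The two-sided exact permutation test gave p = 0.2 and 0.171, and 0.857 each after adjustment over 12 tests.

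For the miR-214 arm ratio, the control sows had 2.43, 2.99, 2.17 and 3.52. Sows 5 to 7 had 2.82, 2.57 and 3.01, sows 8 to 11 had 3.60, 2.77, 2.36 and 3.05, and sows 12 to 15 had 2.78, 1.89, 2.75 and 3.47. The dose means lay 0.03, 0.09 and -0.04 from control on the log2 scale, and all groups overlapped. The largest difference among the other 2 ratios was in miR-214-3p over miR-199-3p at 1000 µg/kg/day, -0.26 on the log2 scale (exact permutation p = 0.286, adjusted 0.857). It was -0.13 without sow 13 and -0.38 without sow 15. With these group sizes the exact test cannot give a p below 0.0286. A difference in a single comparison could therefore not pass adjustment over 12 tests.

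**Figure D2:**
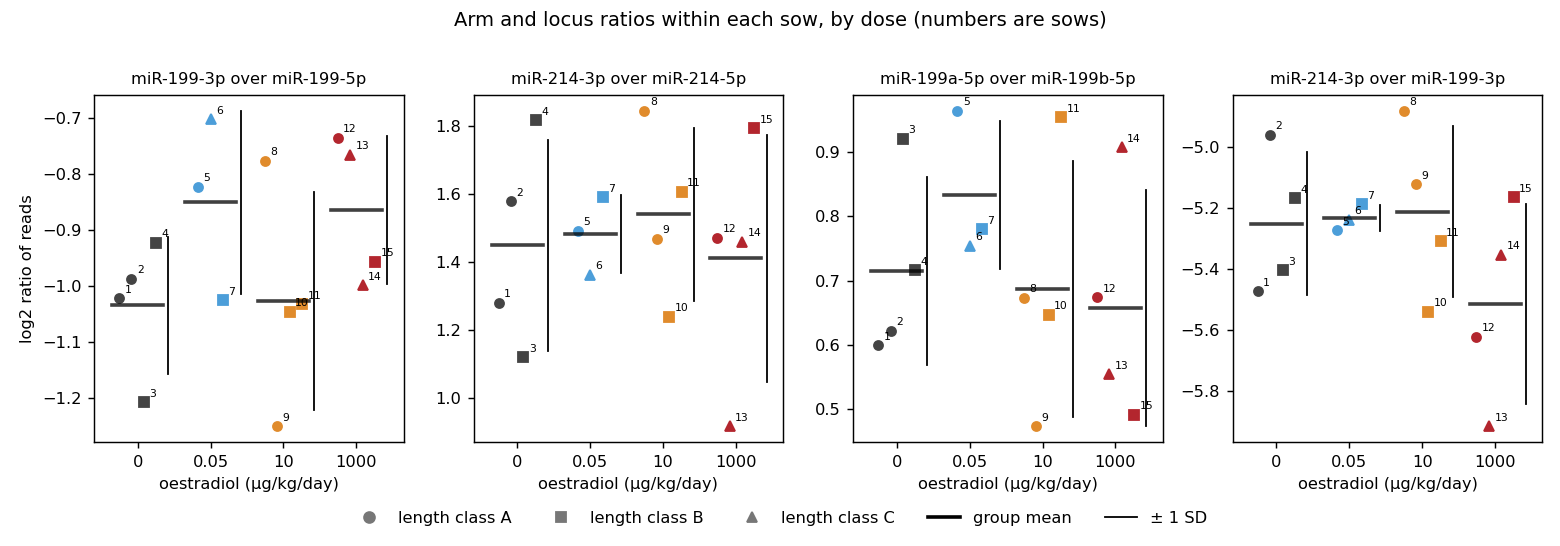
Log2 ratio of reads within each sow by oestradiol dose, for both arm ratios, miR-199a-5p over miR-199b-5p and miR-214-3p over miR-199-3p, with the group mean (thick line) and ± 1 SD (thin line). Zero would be equal reads; the miR-199 arm ratio is below it and the miR-214 arm ratio above it in all 15 sows, and doses overlap control.

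The 5p arms had 1 start and the 3p arms had 2. Among reads that start within 2 bases of the first base, 96.7 ± 0.370% of miR-199a-5p, 97.1 ± 0.379% of miR-199b-5p and 94.5 ± 0.984% of miR-214-5p began at that base (SD, 15 sows). For miR-199-3p it was 67.3 ± 2.11%, with 25.95 ± 2.15% beginning 1 base earlier and 6.39 ± 0.497% 1 base later. For miR-214-3p it was 59.5 ± 1.75%, with 37.2 ± 1.81% beginning 1 base earlier. The earlier start moves the seed by 1 base, to ACAGTAG for miR-199-3p and ACAGCAG for miR-214-3p.

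The earlier form of miR-199-3p was itself abundant, at 3540 ± 897 RPM (rank 33), and that of miR-214-3p was at 142 ± 40.1 RPM. Counted over the 2 starts, the earlier one made up 28.2 ± 2.32% of miR-199-3p (24.2 to 32.4%) and 38.1 ± 1.78% of miR-214-3p (35.7 to 41.5%). The share was higher for miR-214-3p than for miR-199-3p in each of the 15 sows, with no overlap between the ranges. This measure was added after the 5′ ends had been seen.

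The earlier form of miR-199-3p begins with the same 7 bases as 2 other miRNAs of these libraries, miR-144-3p of red cells and miR-101-3p, and differs from both at base 8, the last base of the seed. Their first 20 bases are shown to compare the seeds.
miR-199-3p, 1 base earlier: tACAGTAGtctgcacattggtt
miR-101-3p: tACAGTACtgtgataactga
miR-144-3p: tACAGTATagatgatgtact
MiR-101-3p was at 5468 ± 1646 RPM over the 15 sows, of the same order as the earlier form of miR-199-3p, and miR-144-3p was at 47.4 ± 21.7 RPM. The usual form of miR-199-3p, with the seed CAGTAGT, does not share this start.

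The dose groups did not differ in these ends beyond the spread between sows. The share of miR-199-3p with the earlier start was 29.3 ± 2.80% in the 4 control sows and 27.6 ± 2.96% in the 3 sows at 0.05 µg/kg/day. It was 27.3 ± 2.22% at 10 µg/kg/day and 28.4 ± 1.78% at 1000 µg/kg/day (SD, 4 sows each). In the same order that of miR-214-3p was 38.8 ± 2.38%, 37.4 ± 1.30%, 37.2 ± 0.826% and 38.8 ± 2.08%. The smallest p of 15 exact permutation tests on starts and mean lengths was 0.171 (0.943 after adjustment). Here too a difference in a single comparison could not have passed the adjustment. As sets of reads of their own in edgeR, neither earlier form was called at any dose.

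Read length differed between members. MiR-214-5p was the most uniform, with 90.5 ± 1.43% of its reads at 22 nt, followed by miR-199a-5p with 78.0 ± 3.13% at 23 nt. MiR-199b-5p, 2 bases different from miR-199a-5p within the first 20, was split between 23 nt (57.5 ± 4.48%) and 22 nt (34.7 ± 4.11%), where miR-199a-5p had 13.1 ± 2.50% at 22 nt. The share at 22 nt was 29.5 to 43.3% for miR-199b-5p and 8.31 to 17.5% for miR-199a-5p, without overlap over the 15 sows. MiR-199-3p had 59.5 ± 1.41% at 21 nt and 29.9 ± 1.48% at 22 nt. MiR-214-3p was the most spread, with 51.2 ± 2.97% at 22 nt, 17.9 ± 1.99% at 21 nt, 17.1 ± 1.72% at 23 nt and 9.39 ± 2.01% at 24 nt.

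The most abundant single read made up 72.7 ± 3.94% of miR-199a-5p, 69.9 ± 2.16% of miR-214-5p, 52.9 ± 4.83% of miR-199b-5p, 50.6 ± 1.53% of miR-199-3p and 35.6 ± 3.55% of miR-214-3p. As shares of all miR-214-5p reads, the 3 main reads of 22 nt ended in C (69.9%), A (11.1 ± 1.60%) or T (8.83 ± 1.97%). For miR-199-3p the 22 nt reads ended mostly in A (19.6 ± 1.39% of the member) or T (8.25 ± 0.817%). No hairpin sequence was used, so which of these last bases are encoded was not determined.

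**Figure D3:**
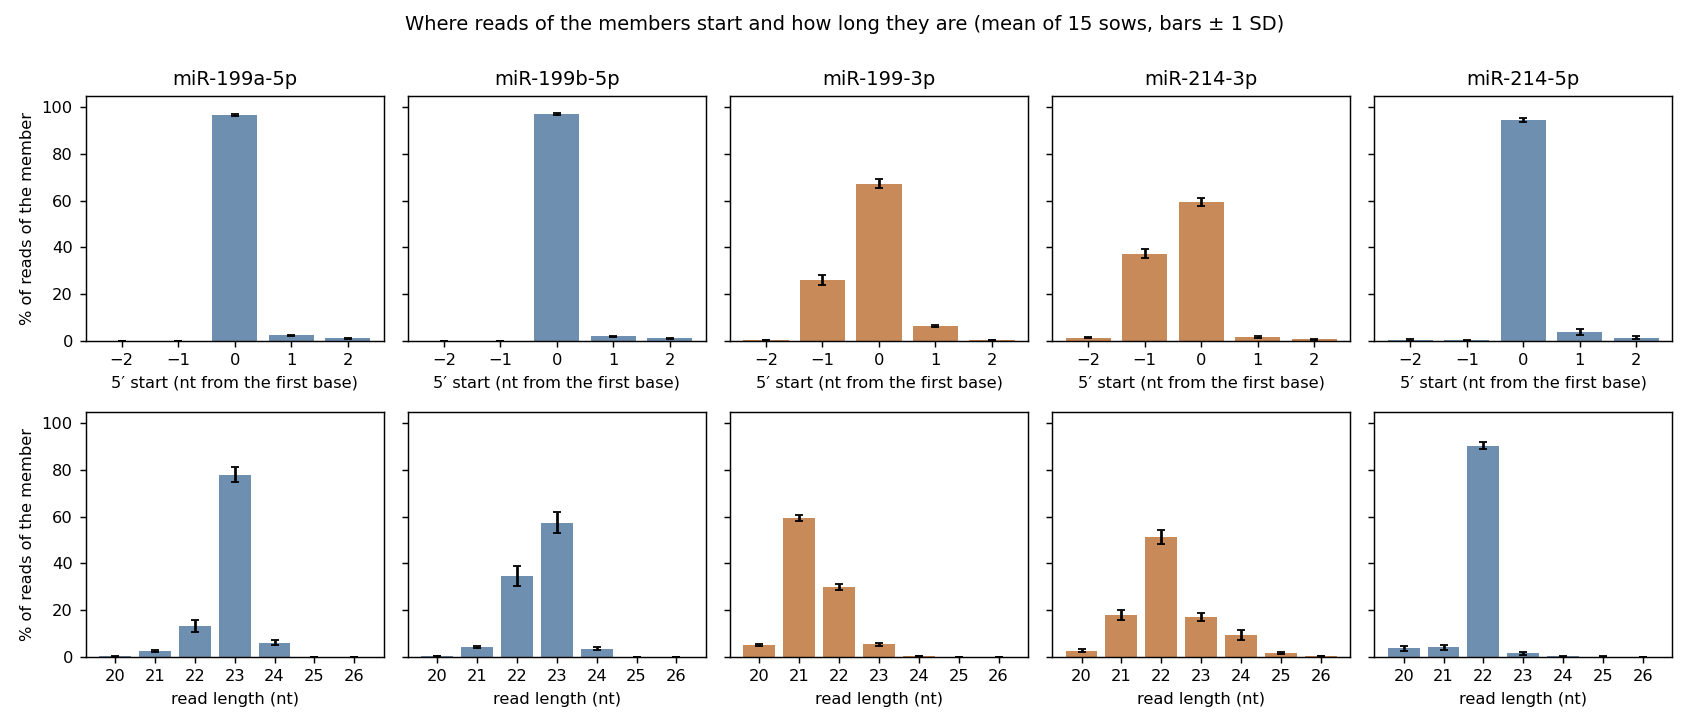
Percent of each member's reads by 5′ start (top, nt from the first base, negative is earlier) and by read length (bottom, nt), mean of 15 sows with bars of ± 1 SD; 5p arms in blue, 3p arms in brown. Over 94% of 5p reads share 1 start, whereas 25.95% of miR-199-3p and 37.2% of miR-214-3p start 1 base earlier.

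In 2 libraries, that of control sow 3 and the first extraction of sow 7, reads with the single substitution G4T, counted from the 5′ end of the read, were common. They came to 5.17% (sow 3) and 4.76% (sow 7, first extraction) of the miR-199-3p count and to 4.81% and 3.08% of that of miR-214-3p, but to at most 0.0465% and 0.102% in the other 14 libraries. The change was not particular to the members: over the 132 abundant sets of reads that can carry G4T it was 5.35% and 4.97% in those 2 libraries and at most 0.0538% in the others. The second extraction of sow 7 was at 0.00603%. Of the members, only miR-199-3p and miR-214-3p can carry it, and these reads were left out of their counts by the 20-base match. With such reads added back, the share of miR-199-3p with the earlier start in sow 3, the highest of all, moved from 32.4% to 31.3%, and the median arm ratios of miR-199 and miR-214 stayed at 0.505 and 2.78. Those medians fall on sows 2 and 12, whose libraries had few such reads, so they could hardly move and do not describe sows 3 and 7.

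Levels of the members were correlated across sows, but for several pairs Pearson's r was much lower without 2 sows. Over the 15 sows Pearson's r of log2 (RPM + 1) was 0.75 to 0.90 for the 10 pairs, with adjusted permutation p-values of 0.000300 to 0.00268. The closest pair was miR-199-3p and miR-214-5p, arms of different hairpins (r = 0.90, Spearman's rho = 0.88, adjusted permutation p = 0.000300 and 0.000500). The arms of miR-214 gave r = 0.82 and rho = 0.84 (adjusted permutation p = 0.000625 and 0.000900). MiR-199-3p followed miR-199a-5p with r = 0.87 and rho = 0.71, and miR-199b-5p with r = 0.83 and rho = 0.69. The 5p arms miR-199a-5p and miR-199b-5p, which come from different genes, gave r = 0.88 and rho = 0.71.

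The weakest pair by rank was miR-199a-5p and miR-214-3p, with r = 0.77 and rho = 0.36 (adjusted permutation p = 0.00268 and 0.193). Each pair was computed again without the 2 sows farthest from the median, which were sows 4 and 13 for 9 pairs and sows 8 and 13 for the arms of miR-214. The r of miR-199a-5p with miR-214-3p was then 0.12 (permutation p = 0.7005), and that of miR-199b-5p with miR-214-3p was 0.24 (0.426). The r of miR-199a-5p with miR-199b-5p was 0.43 (permutation p = 0.143), and that of miR-199b-5p with miR-214-5p 0.44 (0.134) and with miR-199-3p 0.50 (0.0796). By Pearson's r these 5 relations were not clear without the 2 low sows, and leaving those sows out also narrows the range. By rank over all 15 sows, each of these pairs except miR-199a-5p with miR-214-3p had a rho of 0.57 to 0.71 (adjusted permutation p = 0.00770 to 0.0317). The other 5 pairs, without their 2 farthest sows, kept r of 0.58 to 0.82 with permutation p-values of 0.000410 to 0.0379. Among them were the arms of miR-214 (0.82), miR-199-3p with miR-214-5p (0.74), with miR-199a-5p (0.66) and with miR-214-3p (0.65).

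The sows also fall into 3 classes by the read length of their libraries, a split that was set after the data had been seen and that no label gives. In class A (sows 1, 2, 5, 8, 9 and 12) under 8% of reads are 17 to 19 nt long. The others are class B (sows 3, 4, 7, 10, 11 and 15), where reads of at least 40 nt make up less than 5%, and class C (sows 6, 13 and 14), where they make up more. Sow 7 was placed by its summed libraries (4.75%). Its first extraction had 2.11% and its second 6.38%, which alone would be class C. With 18 to 26 nt reads as the total, all 5 members had higher means in class A than in class B. For example, miR-214-3p was at 274 ± 48.1 against 203 ± 32.9 RPM and miR-214-5p at 94.3 ± 7.95 against 71.3 ± 16.4 RPM (SD, n = 6 each). Such reads made up 46.7 to 57.5% of a sow's deposited reads in class A and 62.1 to 78.4% in class B. With all deposited reads as the total, no member had a higher mean in class A. The order of the 2 classes thus depends on the total used. Within class B, which holds low sow 4, every pair kept a positive r, from 0.63 to 0.97. Class A holds neither sow 4 nor sow 13. Within class A r ran from -0.80 (miR-199b-5p with miR-214-3p, exact permutation p = 0.0736) to 0.79 (miR-199a-5p with miR-199-3p, exact permutation p = 0.0569), and 4 of 10 pairs were negative. Class C holds too few sows for a value. The 4 pairs with miR-199b-5p had r of at most 0.17 within class A, so that their agreement did not hold there. MiR-199b-5p ran only from 6707 to 8184 RPM in class A, against 4002 to 7928 RPM in class B. The part of this narrower range in the lower r was not tested.

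The pooled values were close to these under other scalings. With all deposited reads as the total, r was 0.70 to 0.90, and for deviations from the dose group means it was 0.72 to 0.91. All levels of a sow share 1 total, which is a common part of every pair. As a description, the r of miR-199-3p with 488 other sets of reads that average at least 100 RPM had a median of 0.00. Of those 488, 1 was higher than the r of miR-199-3p with miR-214-5p and 2 were higher than that with miR-199a-5p.

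**Figure D4:**
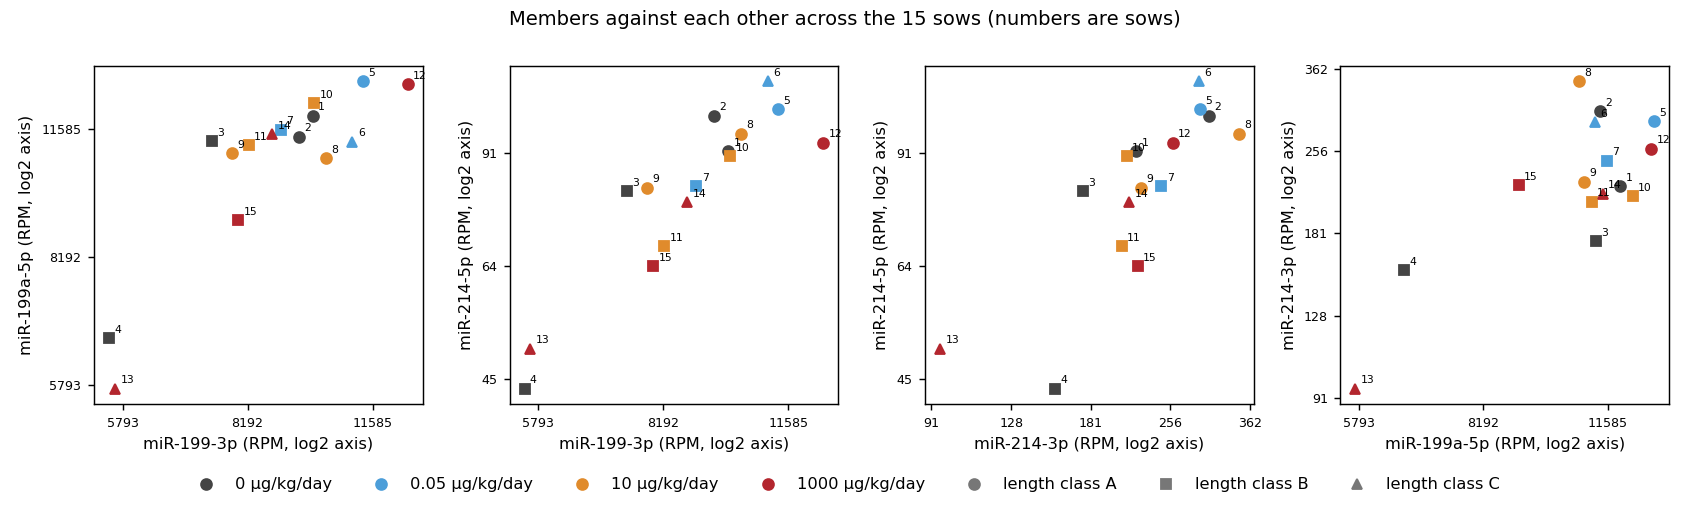
Levels of 4 pairs of members (RPM, both axes log2) in the 15 sows, coloured by dose, with marker shape for length class. Sows 4 and 13 lie at the low corner of each panel; without them miR-199a-5p and miR-214-3p have r = 0.12, whereas miR-199-3p and miR-214-5p have r = 0.74.

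Other cell type markers did not single out the 2 low sows in 1 way. Sow 13 had the lowest summed level of the members (15461 RPM) but the highest summed level of 12 other miRNAs named for stroma and smooth muscle (210883 RPM), led by miR-143-3p, and the highest of red cell (3592 RPM) and striated muscle miRNAs (1259 RPM). It also had the highest level of endothelial miRNAs (8178 RPM), ranked 2 for epithelial miRNAs (32079 RPM) and had the lowest level of leukocyte miRNAs (431 RPM). Control sow 4 (16358 RPM of the members) ranked 12 of 15 for the stroma list (119798 RPM) and had the highest summed level of 6 leukocyte miRNAs (1094 RPM). That leukocyte sum was mostly 1 miRNA, miR-146b-5p (850 RPM), and so does not stand for the whole list. Sow 12, with the highest summed level of the members (34363 RPM), also had the highest of 7 epithelial miRNAs (39018 RPM). The part of these in the members' levels was not tested.

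The label stromal is background knowledge and could not be checked in whole tissue from these reads alone. Of the 12 stroma and smooth muscle miRNAs, 8 had a positive r with miR-199-3p over the 15 sows, with a median of 0.30 and a range from -0.47 (miR-100-5p) to 0.68 (miR-29a-3p). With miR-214-3p 6 of the 12 were positive, with a median of 0.03 and a range from -0.55 (miR-100-5p) to 0.56 (miR-152-3p). The most abundant of them, miR-143-3p at 55219 ± 19204 RPM, had -0.22 with miR-199-3p and -0.39 with miR-214-3p. The least abundant, miR-23b-3p at 1146 ± 186 RPM, had 0.43 and 0.41. Of 7 epithelial miRNAs 5 were positive with miR-199-3p, with a range from -0.72 (miR-375) to 0.74 (miR-205-5p), and 3 of 7 with miR-214-3p. Of 6 leukocyte miRNAs 5 were positive with miR-199-3p (median 0.53) and 5 with miR-214-3p (median 0.49). The 12 stroma and smooth muscle miRNAs did not pass the test at any dose (0 of 12 in edgeR). At 0.05, 10 and 1000 µg/kg/day 10, 9 and 9 of them had values above control, with medians of 0.11, 0.10 and 0.15 on the log2 scale against -0.01, 0.03 and 0.01 over all sets.

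Reads outside the cluster were ranked by how closely their level followed that of miR-199-3p or miR-214-3p. The measure was Pearson's r over the 15 sows among the 488 sets of reads, and the names rest on background knowledge. For miR-199-3p the first was miR-361-5p (r = 0.93, 328 RPM on average), then miR-196b-5p (0.89, 641 RPM), a read without a name here (0.87, 1475 RPM), miR-17-5p (0.85, 229 RPM) and miR-221-3p (0.85, 628 RPM). For miR-214-3p they were miR-361-5p (0.89), miR-574-3p (0.86), miR-424-5p (0.84), miR-196b-5p (0.83) and miR-31-5p (0.82). The 2 miRNAs that appear in both rankings and the unnamed read are shown by their first 20 bases, with bases 2 to 8 in capitals.
miR-361-5p: tTATCAGAatctccaggggt
miR-196b-5p: tAGGTAGTttcctgttgttg
unnamed read: aCCAAAGCtagctcaacata
Without sows 4 and 13, miR-361-5p kept r = 0.85 with miR-199-3p and 0.67 with miR-214-3p, whereas the r of miR-31-5p with miR-214-3p fell from 0.82 to 0.23. Within class A and class B miR-361-5p had r = 0.88 and 0.89 with miR-199-3p, and 0.30 and 0.96 with miR-214-3p.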

How the data were processed

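The authors deposited, for each library, raw counts of distinct reads, per the file layout (1 count and 1 read a line), with no normalization. Reads were 17 to 49 nt. Per the labels' protocols RNA came from TRIzol and libraries from the NEBNext small RNA kit. The submitters' processing notes name FastQC and 4 genome builds with no role, the pig one being Sscrofa10.2. Adapter trimming and any aligner are not given in the sources used here.

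Reads of 20 to 26 nt were summed by their first 20 nt. Of 2850789 such sets, 23707 had at least 30 reads, and 9951 passed edgeR's filterByExpr. Member sets are the most abundant ones with the known first 8 bases of each miRNA. Totals were 18 to 26 nt reads, times TMM factors in the tests (0.804 to 1.17). EdgeR 4.0.16 (robust quasi-likelihood, 15 sows, Benjamini-Hochberg adjustment, checked on simulated data) gave each dose, joint and rank test. Ratios and ends used two-sided exact permutation tests, and correlations 100000 permutations of log2 (RPM + 1). Alternatives included DESeq2 1.42.0. The text names all members, the stroma list by counts and extremes, and the 5 most alike sets per target. The members and lists were chosen with earlier results of these data known. Reads carry no molecular identifiers.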

Additional observations from a re-analysis of the deposited data

Results flagged for a closer look

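In 48 groups of 4 sows, the highest or lowest sow was set against the other 3 by Dixon's gap, which flags about 1 group in 20 by chance. 4 values stood apart. MiR-199a-5p in control sow 4 was at 6576 RPM, against 11197 to 11990 RPM in the other control sows. MiR-214-3p in sow 8 at 10 µg/kg/day was at 345 RPM, against 207 to 225 RPM, and its form that starts 1 base earlier was at 213 RPM in the same sow, against 122 to 128 RPM. The mean length of miR-214-3p in sow 10 at 10 µg/kg/day was 22.1 nt (22.09), against 22.17 to 22.18 nt.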

How the results depend on the processing

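Neither a member nor an earlier form was called in 609 edgeR or DESeq2 tests under the alternatives, 435 of them of the 5 members (smallest adjusted p 0.745, smallest p 0.058). These tests reuse the same sows. The differences that crossed 0 thus did so within their error, and the causes were not tested. The number of sets called at 10 µg/kg/day was 0 in edgeR and 1 with DESeq2, 1 without filterByExpr and 0 to 1 over single left-out sows (1 without sow 8). At 1000 µg/kg/day it was 1 with only that dose and control fitted. In the joint test it was 2 with DESeq2 and 1 without filterByExpr. None was a member.

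Scaling by all deposited reads moved miR-199a-5p to 0.0094 and miR-199b-5p to 0.068 at 1000 µg/kg/day, and the rank trend to 0.020 for miR-199a-5p and 0.0044 for miR-214-3p. With length class as a covariate the values at 1000 µg/kg/day were 8.1e-05 (miR-199a-5p), 0.075 (miR-199b-5p), 0.0068 (miR-214-3p) and 0.040 (its earlier form), and the miR-199a-5p trend was 0.0091. With only the first library of sow 7, miR-199b-5p at 0.05 µg/kg/day was -0.015. Counting starts up to 2 bases away gave -0.029 for the miR-199 arm ratio at 10 and -0.024 for the miR-214 arm ratio at 0.05 µg/kg/day. With reads that carry G4T added back, an alternative chosen after the data were seen, the miR-199 arm ratio at 10 was -0.0095, and the share of miR-214-3p that starts earlier at 1000 µg/kg/day was 0.28 percentage points.

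Leaving out 1 sow at a time gave these ranges of log2 differences that crossed 0. At 0.05 µg/kg/day they were -0.0013 to 0.27 (miR-199a-5p), -0.13 to 0.19 (miR-199b-5p) and -0.012 to 0.36 (miR-199-3p, earlier form). At 10 they were -0.063 to 0.36 (miR-214-5p), -0.11 to 0.27 (miR-199-3p, earlier form) and -0.031 to 0.46 (miR-214-3p, earlier form). At 1000 they were -0.25 to 0.094 (miR-199a-5p), -0.23 to 0.11 (miR-199b-5p), -0.094 to 0.27 (miR-199-3p), -0.29 to 0.16 (miR-214-3p), -0.38 to 0.048 (miR-214-5p), and -0.23 to 0.25 and -0.37 to 0.15 for the earlier forms of miR-199-3p and miR-214-3p. Rank trends ran from -0.077 to 0.040 (miR-199a-5p), -0.051 to 0.057 (miR-199b-5p), -0.028 to 0.075 (miR-199-3p), -0.10 to 0.033 (miR-214-3p), and -0.063 to 0.060 and -0.11 to 0.026 for the 2 earlier forms.

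For ratios the ranges were -0.075 to 0.083 (miR-199 arms, 10), -0.077 to 0.16, -0.019 to 0.21 and -0.17 to 0.13 (miR-214 arms, 0.05, 10 and 1000), -0.12 to 0.044 and -0.14 to 0.011 (miR-199a-5p over miR-199b-5p, 10 and 1000), and -0.056 to 0.11 and -0.073 to 0.15 (miR-214-3p over miR-199-3p, 0.05 and 10 µg/kg/day). For mean length they were -0.025 to 0.0016, -0.0065 to 0.017 and -0.029 to 0.00052 nt (miR-199-3p, 0.05, 10 and 1000), -0.0093 to 0.014 nt (miR-199a-5p, 10), and -0.045 to 0.048 and -0.047 to 0.054 nt (miR-214-3p, 0.05 and 1000). The share that starts earlier ranged from -1.75 to 0.093 points (miR-199-3p, 1000) and from -1.07 to 0.85 points (miR-214-3p, 1000). For miR-214-3p at 10 µg/kg/day it ranged from -2.66 to -0.74 points, and without control sow 4 its exact permutation p was 0.0286, not adjusted.

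No paired analysis was possible because the groups share no replicate numbers. The alternatives that need annotated miRNAs or hairpins were not run, since no miRNA reference was used. Depth limits miR-214-5p most, at 136 to 1049 reads per sow.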
